A study of Mus musculus with 141 samples.

Results

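The genes of de novo lipogenesis were followed across the inguinal white adipose tissue (iWAT) of 82 inbred mouse strains of the Hybrid Mouse Diversity Panel (HMDP). The set held 10 genes, Fasn, Acaca, Acly, Scd1, Elovl6, Mlxipl, Srebf1, Thrsp, Me1 and Pnpla3, taken by symbol from the 36558 genes of the expression tables. They were chosen by name for their role in the pathway. Each was found under 1 Ensembl identifier, and each passed the filter on low counts in every comparison. The tissue was collected from mice on a diet high in fat and sucrose (HF/HS), so every animal carried the diet and no chow group was analysed here. The mice started the diet at 8 weeks of age, stayed on it for 8 weeks and were fasted for 4 h before collection. RNA-seq libraries numbered 67 for females and 74 for males, with 1 library per sex and strain, and 59 strains had a library of each sex. The strains belonged to the BXD (40 strains), AXB and BXA (11), CXB (3) and BXH (4) recombinant inbred families and to a group of 24 classical inbred strains. The label of 1 matched BXD strain, BXD24/TyJ-Cep290<rd16>/J, names the rd16 allele of Cep290. That of a matched classical strain, BTBR T<+> tf/J, names T<+> and tf. AXB19/PgnJ, AXB19a/PgnJ and AXB19b/PgnJ share a line number, and each was counted as a strain. The BXD descend from C57BL/6J and DBA/2J, the AXB and BXA from A/J and C57BL/6J, the CXB from BALB/c and C57BL/6, and the BXH from C57BL/6J and C3H/HeJ. With 1 library of each sex at most, a strain gave no spread between animals of 1 strain and sex. The sex and family tests and the correlations used the spread between strains. The test of variation between strains used the spread between the libraries of a strain.

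De novo lipogenesis turns glucose-derived carbon into fatty acids. Citrate leaves the mitochondrion and is split to acetyl-CoA, which is carboxylated to malonyl-CoA and assembled into palmitate with NADPH as the reductant, and palmitate is then elongated and desaturated. Insulin acting through SREBP-1c and glucose acting through ChREBP induce the enzymes, and adipose tissue is known as a site where ChREBP has a large part in this control.

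Total estimated counts ranged from 6269001 to 78562464 per library with a median of 30233062, and mitochondrial genes took 3.99 to 29.9% of the counts. The labelled tissue, subcutaneous adipose, was checked with 5 adipocyte markers. Adipoq was at 302.1 TPM (transcripts per 1000000) or more in each library, and Plin1, Plin4, Cidec and Fabp4 were likewise present in each. Summed Y-linked expression went against the sex label in 3 libraries, the female BXD34/TyJ, the female BXD69/RwwJ and the male NZW/LacJ, of which only NZW/LacJ belonged to a strain with both sexes. Another 2 libraries stood apart in marker levels. The female AXB12/PgnJ had the lowest adipocyte marker score of the matched strains (8.75, mean log2 CPM), with lymphocyte markers at 7.37 and skeletal muscle markers at 5.10. The male PL/J had mammary epithelial markers at 4.48, within the range of the females, while its Y-linked genes were in the range of the males. Libraries with a skeletal muscle score over 4 came from 12 of the 59 matched strains. The tests of sex, strain and family, and the correlations between the sexes, with Fasn and with marker scores, were repeated without the female AXB12/PgnJ and the males NZW/LacJ and PL/J, and again without the libraries high in muscle markers. The calls that changed are given beside the results. In whole tissue, fewer cells of a type and less RNA per cell cannot be told apart.

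Fasn, Acaca, Acly and Srebf1 lie on chromosome 11, and the other members on chromosomes 3 (Elovl6), 5 (Mlxipl), 7 (Thrsp), 9 (Me1), 15 (Pnpla3) and 19 (Scd1). In build GRCm38 Fasn spans chr11:120805846-120824547 on the minus strand, Acly chr11:100476353-100528000 on the minus strand and Elovl6 chr3:129532355-129638495 on the plus strand. Sequence upstream of the start is shown for the pair of members that varied most closely together (Fasn and Acly), for the member least like them (Pnpla3) and for the transcription factor genes (Mlxipl and Srebf1). RefSeq promoter windows, from 250 bases before to 50 bases after a start site, were matched for 9 of the members and gave 13 windows. The last 140 bases before the start are printed for 6 of them, in genome build GRCm38.p6, 5′ to 3′ on the strand of the gene. Capitals mark matches, on either strand, to CACGTG (E-box), TCACNCCAC (sterol regulatory element), CCAAT (NF-Y box) and GGGCGG (Sp1 box). The stretches are chr11:120824548-120824687 on the minus strand for Fasn, chr11:100528001-100528140 on the minus strand for Acly, chr5:135106751-135106890 and chr5:135089750-135089889 on the plus strand for Mlxipl, chr11:60210472-60210611 on the minus strand for Srebf1, and chr15:84167676-84167815 on the plus strand for Pnpla3.
Fasn: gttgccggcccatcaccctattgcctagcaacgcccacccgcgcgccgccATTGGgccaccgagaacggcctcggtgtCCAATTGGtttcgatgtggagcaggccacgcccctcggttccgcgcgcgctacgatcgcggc
Acly: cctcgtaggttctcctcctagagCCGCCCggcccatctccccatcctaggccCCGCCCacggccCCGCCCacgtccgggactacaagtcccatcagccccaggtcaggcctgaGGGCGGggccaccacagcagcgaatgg
Mlxipl, downstream start: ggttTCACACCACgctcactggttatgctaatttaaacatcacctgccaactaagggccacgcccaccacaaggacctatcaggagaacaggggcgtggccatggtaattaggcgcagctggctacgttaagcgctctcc
Mlxipl, upstream start: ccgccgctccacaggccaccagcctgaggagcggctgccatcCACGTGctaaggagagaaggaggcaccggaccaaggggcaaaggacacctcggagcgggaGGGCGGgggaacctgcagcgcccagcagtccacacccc
Srebf1, most downstream start: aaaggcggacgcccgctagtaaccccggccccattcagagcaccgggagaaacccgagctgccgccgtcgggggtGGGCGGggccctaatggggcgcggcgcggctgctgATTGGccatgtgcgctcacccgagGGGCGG
Pnpla3: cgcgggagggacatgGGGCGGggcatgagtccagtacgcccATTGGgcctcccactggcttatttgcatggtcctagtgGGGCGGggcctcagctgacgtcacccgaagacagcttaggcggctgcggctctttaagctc

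None of these stretches overlapped an annotated exon. The downstream Mlxipl stretch and the Srebf1 stretch lay within introns of their own genes, and the other 4 lay outside the gene. The Fasn stretch held the NF-Y box 3 times, at positions -90, -62 and -59 from the start, the last pair overlapping by 2 bases. CCAAT was found in 8 of the 13 member windows and in 37.4% of all 32851 RefSeq windows of the same length. The Sp1 box was found in 6 of the 13 and in 35.7% of all windows. The E-box was found only in the upstream Mlxipl window and the sterol regulatory element only in the downstream one, against 7.15% and 1.24% of all windows. TATAAA was found in none of the 13 and in 13.6% of all windows. A match is a description of the letters and not a binding site. The counts were summed per gene, so transcripts from the different starts of Mlxipl (the alpha and beta forms of ChREBP) and of Srebf1 (SREBP-1a and SREBP-1c) could not be separated.

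On the length-corrected TPM scale, Scd1, the desaturase that makes oleate and palmitoleate, was the most abundant member in each library. Its mean was 8812 ± 5173 TPM in females (SD, n = 67) and 8471 ± 5413 TPM in males (SD, n = 74). Fasn, the fatty acid synthase, followed with 827.1 ± 697.6 TPM in females and 446.5 ± 306.0 TPM in males, above 99.7% and 99.3% of all genes. The order below these differed between the sexes. In females it ran Thrsp (509.5 TPM), Me1 (306.6), Acly (288.7), Pnpla3 (215.9), Acaca (114.1), Elovl6 (83.07), Srebf1 (78.73) and Mlxipl (42.22). In males it ran Pnpla3 (260.9 TPM), Thrsp (245.3), Me1 (223.5), Acly (127.1), Srebf1 (91.51), Acaca (59.28), Mlxipl (36.24) and Elovl6 (20.57). Many neighbours in these orders were not separated. Elovl6 exceeded Srebf1 in only 24 of the 67 females although its mean was higher, Me1 exceeded Acly in 40 of 67, and in males Thrsp exceeded Me1 in 36 of 74. The transcription factors sat at the low end, and on the log2 scale Mlxipl and Srebf1 were also the members with the narrowest spread.

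**Figure D1:**
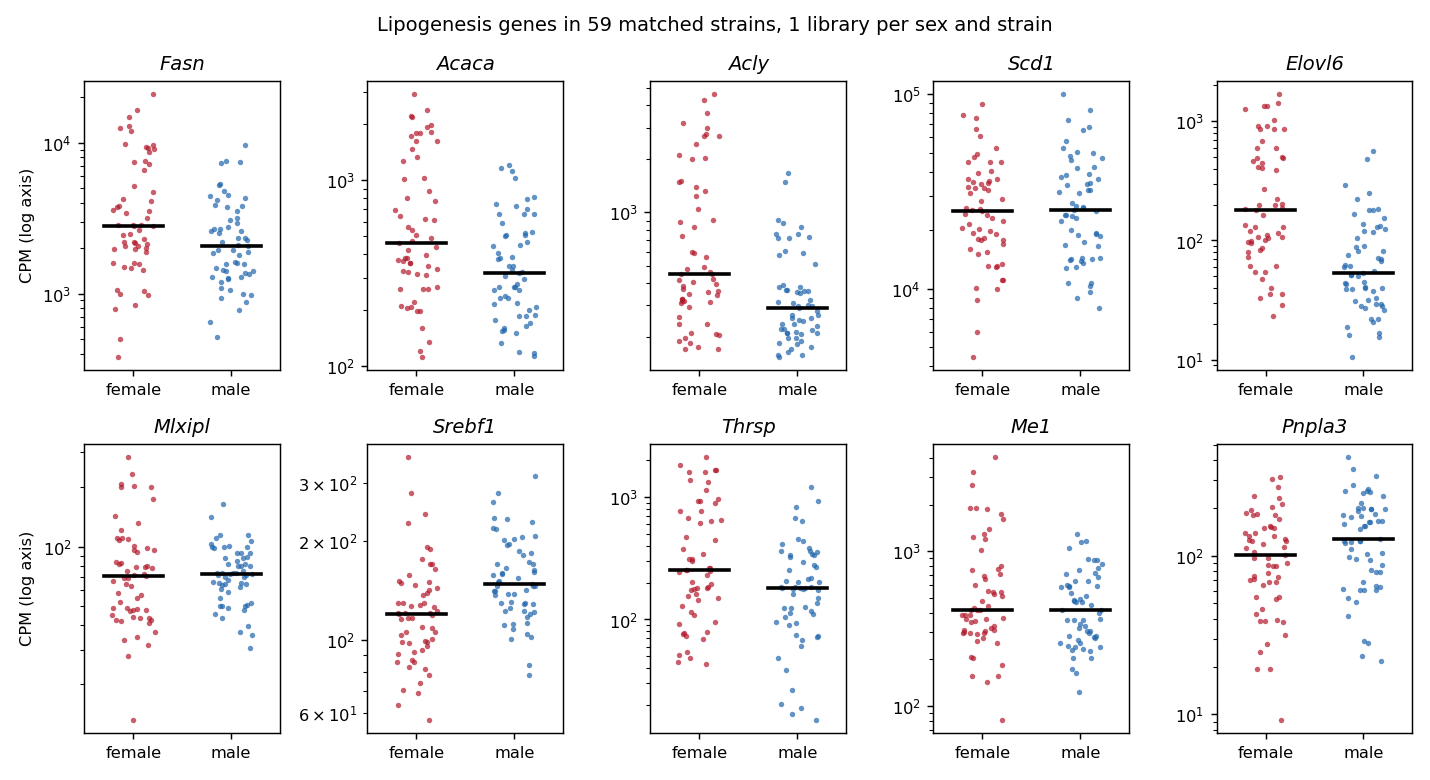
Level of each lipogenesis gene in the female and the male library of the 59 matched strains, in CPM on a log axis. Each point is 1 library. Elovl6 medians were 178.6 CPM in females and 53.45 CPM in males, and the ranges of the sexes overlapped for each gene.

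To ask which members differed between the sexes, the libraries of the sexes were compared within each of the 59 matched strains. Levels are in CPM (counts per 1000000, scaled by TMM), and log2FC is female vs. male from edgeR's quasi-likelihood test with strain in the model, with p adjusted over the 16765 genes tested. Of the 10 members, 5 were higher in females (Elovl6, Acly, Thrsp, Acaca and Fasn), 2 were lower (Srebf1 and Pnpla3) and 3 did not pass the test. A sex difference was called for 58.1% of all genes tested, 28.4% higher and 29.8% lower in females, so the number of members called is read against that share. The median log2FC was 0.41 over the members and 0.01 over all genes tested. Scaled by library totals instead of TMM, the median of all genes moved to 0.12 and the split of calls from 4759 higher and 4988 lower to 7364 and 2794, while 6 members were higher and 2 lower. With the strain as a replicate block left out of the model, 7 members were again called, but 6 as higher and 1 as lower. Over all genes 4086 were then called higher and 4104 lower. Pnpla3 lost its call (adjusted p = 0.0885) and Me1 gained one (log2FC 0.61, adjusted p = 0.00571).

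Among the enzymes that make palmitate, Acly, the ATP citrate lyase that supplies cytosolic acetyl-CoA, ranged from 169.9 CPM through a median of 447.8 to 4618 CPM in females. In males it ranged from 153.7 through 288.9 to 1675 CPM. The female values reached higher, and 12 females lay above the highest male. The log2FC was 0.88 ± 0.211 (SE, n = 59 strains, edgeR adjusted p = 0.000326), with the female above the male in 42 strains.

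Acaca, the acetyl-CoA carboxylase that makes malonyl-CoA, ranged from 111.98 through 460.9 to 2908 CPM in females and from 113.002 through 318.1 to 1209 CPM in males. The lowest values of the sexes were alike and 15 females exceeded all males. Its log2FC was 0.74 ± 0.178 (SE, edgeR adjusted p = 0.000351), again with 42 strains higher in the female.

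Fasn ranged from 379.3 through 2824 to 20989 CPM in females and from 518.8 through 2059 to 9633 CPM in males. Females held both the lowest and the highest value. The log2FC was 0.55 ± 0.208 (SE, edgeR adjusted p = 0.0205), with 39 strains higher in the female. This call was lost with DESeq2 (adjusted p = 0.0583), and with limma-voom it was lost in 14 of the 59 fits that each left out 1 strain, with an adjusted p of at most 0.0594. Those strains were A/J, AXB19a/PgnJ, AXB5/PgnJ, BXA8/PgnJ, BXD12/TyJ, BXD40/TyJ, BXD45/RwwJ, BXD50/RwwJ, BXD74/RwwJ, BXD79/RwwJ, BXD84/RwwJ, C57BL/6J, C57BLKS/J and MA/MyJ.

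Elovl6, which elongates palmitate to stearate, had the largest sex difference of the members. Females ranged from 23.18 through 178.6 to 1684 CPM and males from 10.53 through 53.45 to 566.3 CPM. Of the 59 females, 14 exceeded the highest male and 52 exceeded the male median. The log2FC was 1.72 ± 0.243 (SE, edgeR adjusted p = 1.557e-08), or 3.30-fold, with the female above the male in 52 strains. Over all genes, 505 were called with a larger log2FC.

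Scd1 ranged from 4461 through 25050 to 88818 CPM in females and from 8008 through 25303 to 99991 CPM in males. The medians were close and the groups overlapped throughout. The log2FC was -0.033 ± 0.138 (SE, edgeR adjusted p = 0.851), and the female was higher in 31 strains. Scd1 has near neighbours of similar sequence (Scd2, Scd3 and Scd4), and how reads shared by them were divided was set by the authors' quantification and was not tested.

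Me1, the cytosolic malic enzyme that supplies NADPH, ranged from 81.36 through 415.2 to 4067 CPM in females and from 123.2 through 416.4 to 1299 CPM in males. The medians were alike, and 9 females lay above the highest male. It did not pass the test (log2FC 0.26 ± 0.165, SE, edgeR adjusted p = 0.170).

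Thrsp, the thyroid hormone responsive Spot 14 protein associated with lipogenesis, ranged from 43.37 through 252.3 to 2137 CPM in females and from 15.13 through 181.2 to 1201 CPM in males. Here 8 females exceeded all males and 6 males lay below all females. The log2FC was 0.81 ± 0.256 (SE, edgeR adjusted p = 0.00580), with 40 strains higher in the female.

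Neither transcription factor gene was higher in females. Srebf1, which encodes SREBP-1, ranged from 57.09 through 119.7 to 359.5 CPM in females and from 77.999 through 147.2 to 315.3 CPM in males. Females sat lower, with 49 of the 59 males above the female median. It was lower in females by a log2FC of -0.34 ± 0.0775 (SE, edgeR adjusted p = 0.000157), in 48 of the 59 strains.

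Mlxipl, which encodes ChREBP, ranged from 13.25 through 71.20 to 284.8 CPM in females and from 30.52 through 72.53 to 164.8 CPM in males. Its medians did not separate although the female range was wider at each end. The log2FC was 0.014 ± 0.120 (SE, edgeR adjusted p = 0.931).

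Pnpla3, a lipid droplet protein of the patatin-like phospholipase family whose gene is a known target of SREBP-1c and ChREBP, ranged from 9.25 through 101.6 to 313.1 CPM in females. In males it ranged from 21.70 through 127.8 to 419.6 CPM. The groups overlapped, with 3 males above the highest female and 3 females below the lowest male. It was lower in females by a log2FC of -0.41 ± 0.142 (SE, edgeR adjusted p = 0.0113), in 41 of the 59 strains. This call was lost on log2(TPM + 1) and log2(TPM + 0.1) (limma adjusted p = 0.0533 and 0.0535), over all libraries without the pairing (edgeR adjusted p = 0.0574) and with the adipocyte or the mammary marker score as a covariate.

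**Figure D2:**
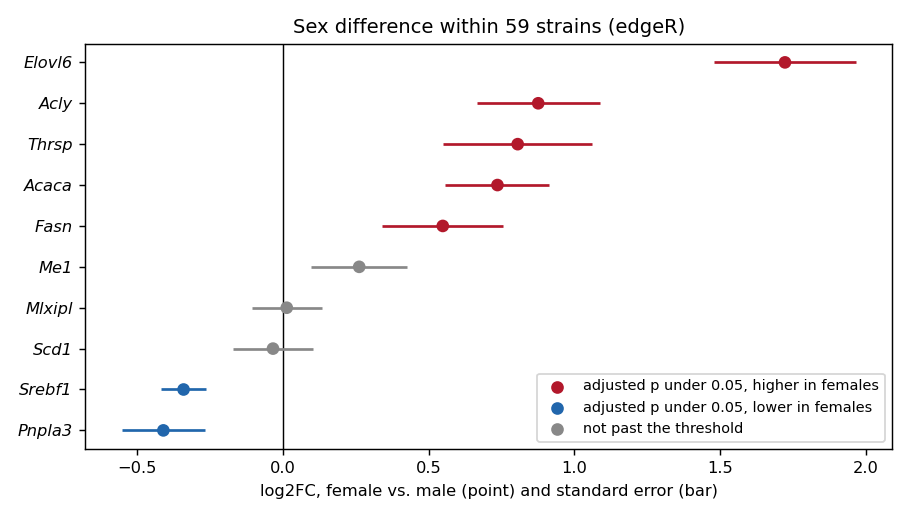
Sex difference of each lipogenesis gene as log2FC, female vs. male (point), with its standard error (bar), from the edgeR fit over 59 strains. Colour gives the call at an adjusted p under 0.05: Elovl6, Acly, Thrsp, Acaca and Fasn lay above 0, Srebf1 and Pnpla3 below, and Me1, Mlxipl and Scd1 did not pass.

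Within strains the size of the difference varied widely. In A/J the female library had 20989 CPM of Fasn and the male 933.3 CPM, and the female to male ratio of Elovl6 reached 80.75, the highest of the 59. Thrsp had its highest ratio, 88.30, in BXD50/RwwJ, and Scd1, Me1 and Pnpla3 had theirs in BXD40/TyJ. At the other end, PL/J had 54.71 CPM of Elovl6 in the female and 566.3 CPM in the male, the lowest ratio for Elovl6, Acaca, Acly and Thrsp. For Fasn, Scd1, Mlxipl, Srebf1, Me1 and Pnpla3 the lowest ratio was in AXB12/PgnJ, whose female library was the lowest in adipocyte markers. Without NZW/LacJ, the same 7 members passed the test. Without AXB12/PgnJ, NZW/LacJ and PL/J, 8 members did, Me1 joining with a log2FC of 0.38 (edgeR adjusted p = 0.0257), and Elovl6 stood at 1.89. Without the 12 strains with high muscle markers, 7 members passed and Elovl6 stood at 1.79. Over all genes, 5017 were called higher and 5163 lower without NZW/LacJ. The calls were 5058 and 5157 without AXB12/PgnJ, NZW/LacJ and PL/J, and 4034 and 4714 without the 12 strains.

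Markers of other cells also differed between the sexes in these strains. The adipocyte markers were lower in females for 5 of 5 genes, with summed levels of 3306 to 34563 CPM in females and 7511 to 42300 CPM in males, and none was at 0 in any of these libraries. Mammary epithelial markers, which the inguinal depot of female mice can carry because it surrounds mammary gland, were higher in females for 9 of 9 genes. Their sum ran from 80.44 through a median of 563.7 to 2176 CPM in females. In males it ran from 0.285 through 2.58 to 475.5 CPM, and all but Epcam were at 0 in at least 1 library. The highest male score (5.09, mean log2 CPM) was that of NZW/LacJ, whose Y-linked expression went against its label. Macrophage markers were lower in females for 6 of 6, with sums of 174.0 to 4580 CPM in females and 200.1 to 2599 CPM in males. Of 6 brown adipocyte markers only Ppargc1a passed, at a log2FC of -0.31 (edgeR adjusted p = 0.00221), with sums of 10.18 to 3786 CPM in females and 24.36 to 2232 CPM in males and Ucp1 at 0 in some male libraries. No lymphocyte marker (sums of 6.68 to 1506 CPM in females and 6.67 to 1248 CPM in males) and no muscle marker (3.65 to 20301 and 3.61 to 2723 CPM) passed, and of 3 skin markers tested 2 were higher and 1 lower, with sums of at most 42.83 CPM.

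The sex difference of several members moved when these scores entered the model. With the adipocyte score as a covariate, 6 members were higher in females and none lower, while over all genes 4147 were called higher and 4070 lower. Scd1 then passed as higher (log2FC 0.51, edgeR adjusted p = 0.000578), Srebf1 went to -0.052 and Pnpla3 to 0.076, neither past the test, while Elovl6 stood at 1.73. With the mammary score as a covariate no member passed, at an unadjusted p under 0.05 either, and over all genes the calls fell to 2 higher and 5 lower. The mammary score was higher in the female in 58 of the 59 strains, so sex and mammary marker level cannot be told apart in these pairs. With the brown adipocyte score as a covariate, 8 members passed and Elovl6 stood at 1.78, while over all genes 4845 were called higher and 5097 lower.

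The sex difference was also compared between the 26 BXD strains and the other 33. No member differed by edgeR at an adjusted or at an unadjusted p under 0.05, nor with limma-voom, and over all genes none was called and 1.87% passed unadjusted. For Fasn the log2FC was larger in the BXD by 0.33 ± 0.419 (SE), and for Elovl6 by 0.18 ± 0.485, so differences of this size were within the error.

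The sex difference was also read in other genes around the pathway, beside the 58.1% of all genes called. Of 13 genes that supply acetyl-CoA and NADPH, 2 were higher in females, 2 lower and 9 did not pass. Tkt, the transketolase of the pentose phosphate pathway, was higher (log2FC 0.60 ± 0.165, SE, edgeR adjusted p = 0.00160), and so was the mitochondrial malic enzyme gene Me3 (log2FC 0.37, adjusted p = 0.000238). Idh1, the cytosolic isocitrate dehydrogenase (log2FC -0.29, adjusted p = 0.00138), and the acetoacetyl-CoA synthetase gene Aacs (log2FC -0.27, adjusted p = 0.0255) were lower.

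Of 14 genes for carboxylation, elongation and desaturation other than the members, 4 were higher in females and 4 lower. The higher ones included Elovl7, an elongase, from 3.01 ± 2.48 CPM in males to 8.49 ± 3.95 CPM in females (SD, n = 59 each, log2FC 1.63, edgeR adjusted p = 3.356e-20), and Fads2, a desaturase of polyunsaturated fatty acids (log2FC 1.17, adjusted p = 2.222e-16). The lower ones included Hacd2, a dehydratase of the elongation cycle (log2FC -0.94, adjusted p = 3.221e-11), and Elovl5, an elongase of polyunsaturated fatty acids (log2FC -0.11, adjusted p = 0.00556). Of 9 genes of glucose entry and glycolysis none was higher and 3 were lower, with Hk2, a hexokinase, at -0.45 (adjusted p = 3.712e-05) and Pfkp, a phosphofructokinase, at -0.17 (adjusted p = 0.000897). Of 16 regulators, 5 were higher, among them Mlxip (0.20, adjusted p = 0.000313), the paralog of ChREBP, and Scap (0.079, adjusted p = 0.000947), the SREBP escort protein. Another 5 were lower, among them Nr1h3 (-0.37, adjusted p = 2.058e-06), the liver X receptor alpha gene, and Insig2 (-0.34, adjusted p = 7.279e-07), which retains SREBP in the endoplasmic reticulum.

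The next question was whether a member differed between strains beyond the spread of the 2 libraries of a strain. In the same edgeR model, 8 of the 10 members varied between strains, where 71.2% of all genes did. Pnpla3 had the lowest adjusted p (0.00171), followed by Elovl6 (0.00247), Scd1 (0.00527), Me1 (0.00556), Acaca (0.00875), Srebf1 (0.0268), Thrsp (0.0268) and Acly (0.0297). Fasn (adjusted p = 0.0987) and Mlxipl (adjusted p = 0.0718) did not pass. With limma-voom 4 members passed (Acaca, Scd1, Elovl6 and Pnpla3) and on log2(TPM + 1) 5 did, while without AXB12/PgnJ, NZW/LacJ and PL/J all 10 did. Without the 12 strains with high muscle markers 7 did, as Acly (edgeR adjusted p = 0.127) and Thrsp (0.0898) lost their calls and Mlxipl (0.0480) gained 1. The 71.2% of all genes is for the main fit, and the share in these other settings is not given.

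The spread itself was wide. In females the SD of log2 CPM was 1.68 for Elovl6 and 1.58 for Thrsp, larger than in 95.8% and 95.1% of all genes, against 0.51 for Srebf1, larger than in 56.4%. In males the values were 1.26, 1.40 and 0.42. Each of the 10 genes spread more in females than in males, as did 62.8% of all genes, whose median SD was 0.45 in females and 0.41 in males.

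Some strains were at the ends for several members. SM/J was among the 3 highest strains by the mean log2 CPM of its libraries for Fasn, Acaca, Acly, Elovl6 and Thrsp, with 8700 CPM of Fasn in the female and 7585 CPM in the male. AXB5/PgnJ was among the 3 highest for Acly, Mlxipl, Srebf1, Thrsp and Me1, with 4067 CPM of Me1 in the female and 646.0 CPM in the male. By the same mean CE/J was the lowest for Acaca (111.98 and 113.002 CPM in the female and the male), Scd1 (4461 and 8008) and Elovl6 (28.82 and 10.53), although the BXD60/RwwJ female had less Elovl6 (23.18 CPM). BXD43/RwwJ was among the 3 lowest for Fasn, Acly, Srebf1 and Pnpla3, with 9.25 CPM of Pnpla3 in the female and 63.84 CPM in the male. Their adipocyte scores were 10.07 and 12.09 in SM/J, 11.38 and 11.98 in AXB5/PgnJ, 11.23 and 11.37 in CE/J and 11.51 and 12.09 in BXD43/RwwJ (mean log2 CPM, female and male), all within the range of the other strains. A/J combined the highest Scd1 of all strains in each sex, 88818 and 99991 CPM, with Fasn at 20989 CPM in the female and 933.3 CPM in the male.

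The parents of the families did not stand in 1 order across members. For Scd1, A/J had the highest values, C57BL/6J had 47312 and 23579 CPM (female and male), DBA/2J 35617 and 23107, C3H/HeJ 17986 and 10768, and BALB/cJ 9971 and 18863. For Me1, C57BL/6J had 1885 and 872.2 CPM and DBA/2J had 293.2 and 238.5 CPM. With 1 library each, these pairs of values carry no test.

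Strain families were compared within each sex, over BXD, AXB and BXA, and classical strains. No member passed in either sex by edgeR, where 12% of all genes did in females and 7.09% in males, and none did with limma-voom. The share of all genes at an unadjusted p under 0.05 is not given, so a pass there is not a result about the members. At that threshold 1 member passed in each sex, Srebf1. Its females averaged 109.7 ± 37.3 CPM in BXD (SD, n = 32), 144.5 ± 67.9 in AXB and BXA (n = 9) and 141.4 ± 61.6 in classical strains (n = 21). Its males averaged 134.3 ± 34.1 (n = 34), 168.6 ± 72.3 (n = 11) and 162.7 ± 46.8 CPM (n = 23). Among these families the BXD were thus lowest in each sex, with an edgeR adjusted p of 0.131 in females and 0.133 in males. Without the libraries with a label conflict the edgeR adjusted p was 0.198 in females and 0.122 in males. With the adipocyte score as a covariate Srebf1 passed in females (adjusted p = 0.0367).

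The CXB and BXH, with 2 or 3 libraries of each sex, were left out of that test. With all 5 families in the model no member passed either, where 8.73% of all genes did in females and 13.1% in males. The lowest edgeR adjusted p was 0.368 in females and 0.0625 in males (Fasn). At an unadjusted p under 0.05 no member passed in females and 3 did in males (Fasn, Srebf1 and Thrsp). The share of all genes at that unadjusted threshold is again not given. The values of the CXB and BXH males are given as a description, chosen after they were seen. Fasn in the 3 CXB males was 1947 CPM (CXB6/ByJ), 4823 CPM (CXB13/HiAJ) and 9633 CPM (CXB11/HiAJ), the last the highest of all males. In the 3 BXH males it was 592.3 CPM (BXH9/TyJ), 748.6 CPM (BXH6/TyJ) and 1403 CPM (BXH8/TyJ). The lowest CXB male thus lay above the highest BXH male. Thrsp in these males was 200.8, 337.1 and 937.4 CPM in the CXB and 13.57, 16.94 and 73.28 CPM in the BXH, and the groups again did not overlap. Nor did they for Acaca, Acly, Scd1 and Me1. Srebf1 did overlap, at 130.6 CPM in CXB6/ByJ and 145.8 CPM in BXH8/TyJ, as did Elovl6, Mlxipl and Pnpla3. The share of all genes without overlap between these males is not given, so the separation is not a result about the members. BXH8/TyJ was among the males high in muscle markers, and for Fasn and Thrsp the groups did not overlap without it either. The 15 strains with only a male library included BXD73/RwwJ, with the highest male values of Acaca (1803 CPM) and Acly (3161 CPM).

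The order of the strains was then compared between the sexes. Over the 59 strains Spearman's rho passed the test for 3 members, Pnpla3, Scd1 and Me1, where 53.7% of all 16862 genes passed and the median rho was 0.30. For Pnpla3 rho was 0.50 and Pearson's r 0.45 (permutation p = 6e-05 and 0.00048, adjusted p = 0.000475 and 0.00224), and r was 0.50 without the 2 strains farthest from the female median. For Scd1 rho was 0.38 and r 0.39 (permutation p = 0.00300 and 0.00245, adjusted p = 0.00969 and 0.00797), with r at 0.44 without the 2 farthest. For Me1 rho was 0.30 and r 0.22 (permutation p = 0.0198 and 0.0940, adjusted p = 0.0399 and 0.136), so r did not pass. The rank call of Me1 was also lost on log2(TPM + 1) (rho 0.29, adjusted p = 0.0548) and with the adipocyte score regressed out (rho 0.15, adjusted p = 0.288).

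The rho values of the enzymes with the sex difference were lower. Fasn had a rho of 0.11 (permutation adjusted p = 0.458), higher than that of only 9.47% of all genes, and Acly one of 0.13 (adjusted p = 0.382). Acaca (0.27, adjusted p = 0.0734) and Elovl6 (0.27, adjusted p = 0.0680) passed without the 2 farthest strains (adjusted p = 0.0349 and 0.0419) and without NZW/LacJ. Without AXB12/PgnJ, NZW/LacJ and PL/J, 6 members passed, with Acaca at a rho of 0.40 (permutation adjusted p = 0.00466), Elovl6 at 0.39 (0.00999) and Thrsp at 0.34 (0.0197) joining, and without the strains high in muscle markers 3 did. The share of all genes that passed in these settings is not given, so the change in count is not a result about the members. Mlxipl, Srebf1 and Thrsp had rho of 0.19 to 0.22. Differences between these correlations were not tested.

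**Figure D3:**
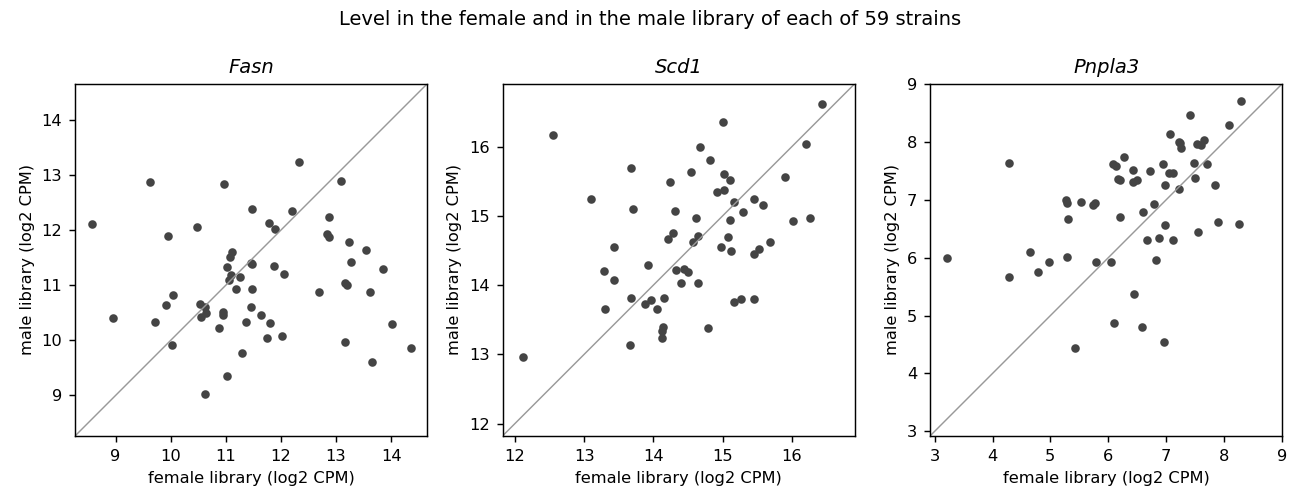
Level of Fasn, Scd1 and Pnpla3 in the female library (horizontal axis, log2 CPM) and in the male library (vertical axis, log2 CPM) of each of the 59 matched strains, 1 point per strain, with the line of equality. Spearman's rho was 0.11 for Fasn, 0.38 for Scd1 and 0.50 for Pnpla3.

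The members were then compared with each other over libraries, within each sex. Among Fasn, Acaca, Acly and Elovl6, rho ran from 0.91 to 0.97 in females and from 0.83 to 0.94 in males. Pairs of these 4 with Scd1 or Pnpla3 ran from 0.25 to 0.52 in females and from 0.06 to 0.49 in males. Acly was closest to Fasn (rho 0.97 in 67 females and 0.94 in 74 males, r 0.96 and 0.91). Acaca followed (0.91 and 0.86), then Elovl6 (0.91 and 0.83) and Thrsp (0.90 and 0.63). For these 4, the permutation p was 1e-05 in each sex, the smallest that 100000 permutations can give, and r stayed at 0.59 or above without the 2 libraries farthest in Fasn.

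The other members were less close. Mlxipl had a rho with Fasn of 0.73 in females and 0.55 in males, Srebf1 0.56 and 0.53, Me1 0.70 and 0.38, Scd1 0.52 and 0.34, and Pnpla3 0.45 and 0.24. In females all 9 passed after adjustment over 16861 genes, where 8.42% of all genes passed with a positive rho. In males 8 passed against 5.37%, Pnpla3 being the exception (permutation adjusted p = 0.192), and Scd1 (adjusted p = 0.0410) and Me1 (adjusted p = 0.0208) lost their calls without the 2 farthest libraries. On log2(TPM + 1) the calls of Srebf1 in females (rho 0.23, permutation adjusted p = 0.125) and of Scd1 (0.0935) and Me1 (0.0569) in males were lost. Scd1 in males was also lost without the libraries high in muscle markers (rho 0.33, adjusted p = 0.0878), and by Pearson's r also without NZW/LacJ and PL/J (0.32, adjusted p = 0.0535). The log2 difference between the sexes within a strain was also compared over the 59 strains, where 7.68% of all genes passed with a positive rho to that of Fasn. Here rho was 0.96 for Acaca, 0.95 for Acly, 0.89 for Thrsp, Me1 and Elovl6, 0.56 for Pnpla3 and 0.26 for Scd1, the last not past the test by rank (permutation adjusted p = 0.219). By Pearson's r Scd1 passed (0.36, permutation adjusted p = 0.0330), but not without AXB12/PgnJ, NZW/LacJ and PL/J (0.33, adjusted p = 0.0615) or without the strains high in muscle markers (0.19, adjusted p = 0.470).

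**Figure D4:**
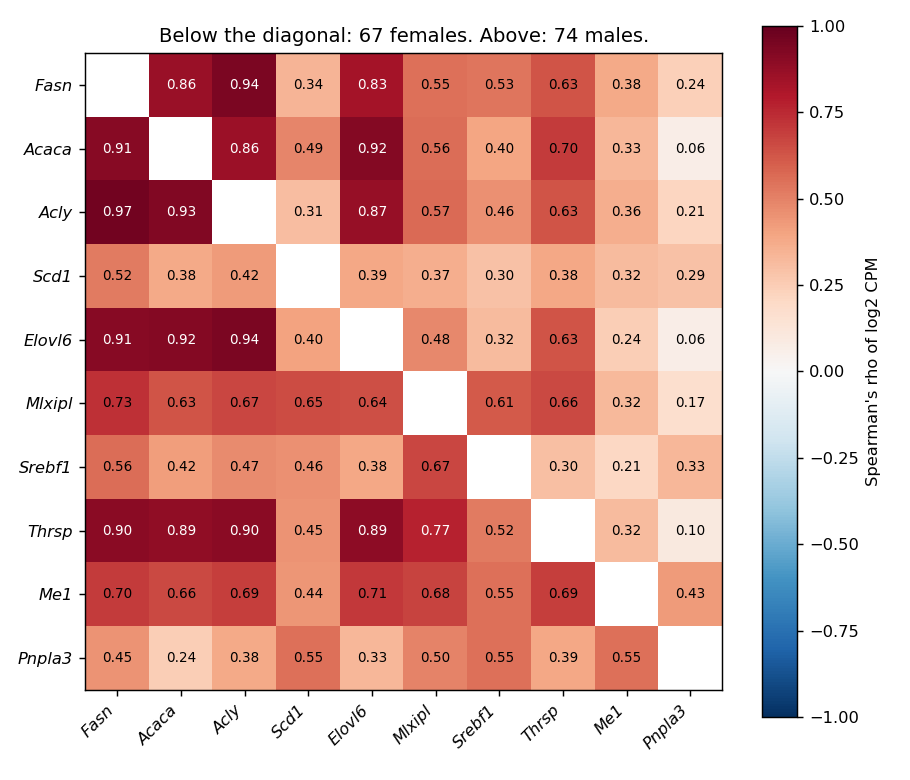
Spearman's rho between the log2 CPM of each pair of lipogenesis genes, with the 67 females below the diagonal and the 74 males above it. Fasn, Acaca, Acly and Elovl6 form the block of highest values (0.83 to 0.97), and their pairs with Scd1 or Pnpla3 lie between 0.06 and 0.52.

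Over all 16861 genes ranked by the smaller of the rho values of the sexes, the 10 genes most like Fasn were Acly, Acaca, Tkt, Elovl6, Gbe1, Acss2, Parm1, Pdha1, Pdhb and Tmem79. Tkt had a rho of 0.94 in females and 0.84 in males. Gbe1, the glycogen branching enzyme, had 0.85 and 0.83, and Acss2, which makes acetyl-CoA from acetate, had 0.89 and 0.78. Pdha1 and Pdhb, subunits of pyruvate dehydrogenase, had 0.84 and 0.76, and 0.88 and 0.74. Of the remaining members, Thrsp ranked 37, Mlxipl 91, Me1 472, Scd1 623 and Pnpla3 1277, with Srebf1 between Mlxipl and Me1. Of the 13 genes supplying acetyl-CoA and NADPH, 9 in females and 8 in males passed the permutation test after adjustment with a positive rho to Fasn. Of all genes, 8.42% and 5.37% did. The median rho of these 13 was 0.70 and 0.45. Of the 9 genes of glucose entry and glycolysis 8 and 7 passed, with a median rho of 0.64 and 0.39. Of the 14 for carboxylation, elongation and desaturation 6 and 4 did (median rho 0.25 and 0.24). Of the 16 regulators 3 and 4 did, with a median rho of 0.16 and 0.13.

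The members also differed in which cell markers they moved with. Scd1 followed the adipocyte score, with a rho of 0.61 in females and 0.41 in males, and so did Pnpla3 (0.51 and 0.43), Srebf1 (0.42 and 0.39) and Mlxipl (0.39 and 0.34), each past the permutation test after adjustment, as was Me1 in males (0.50). With either sign, 72.4% of all genes passed in females and 65.9% in males. Pearson's r of Scd1 was 0.56 and 0.42 (permutation p = 0.0001 and 0.0003), and 0.52 and 0.39 without the 2 farthest libraries. Mlxipl in females lost its call by Pearson's r without the libraries high in muscle markers (0.27, permutation adjusted p = 0.0554). For Fasn, Acaca, Acly and Elovl6, rho with the adipocyte score lay between -0.16 and 0.07 and did not pass in either sex. These 4 followed the brown adipocyte score instead, with rho of 0.58 to 0.62 in females and 0.54 to 0.57 in males, where 18.9% and 8.07% of all genes passed. Each had an unadjusted permutation p of 0.0001, the smallest that 10000 permutations can give, and an adjusted p of 0.00173 in females and 0.00342 in males. Pearson's r of these 4 was 0.53 to 0.64 and stayed at 0.50 or above without the 2 farthest libraries. Thrsp, Mlxipl and Srebf1 also passed with the brown adipocyte score in each sex and Me1 in females, while Scd1 and Pnpla3 passed in neither. Thrsp in males did not pass without NZW/LacJ and PL/J (rho 0.32, permutation adjusted p = 0.0696). With this score regressed out, rho with Fasn was 0.91 in females and 0.86 in males for Acly, and 0.84 and 0.67 for Elovl6. In that setting 8 of the 9 other members passed with Fasn in females and 6 in males, as Srebf1 in females (rho 0.38, adjusted p = 0.0965) and Me1 (0.32, adjusted p = 0.101) and Scd1 (0.35, adjusted p = 0.0744) in males lost their calls.

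With the mammary epithelial score, within females, no member passed the permutation test after adjustment or at an unadjusted p under 0.05, and rho with Elovl6 was 0.19 (adjusted p = 0.218), where 34.8% of all genes passed. In males 1 member, Acaca, passed by rank (rho 0.32, permutation adjusted p = 0.0333), against 19.9% of all genes. By Pearson's r 4 passed, Acaca (0.43, permutation adjusted p = 0.00549), Thrsp (0.38, 0.0172), Elovl6 (0.34, 0.0275) and Acly (0.34, 0.0371). Without the males NZW/LacJ and PL/J no member passed by either measure, Acaca standing at a rho of 0.26 (adjusted p = 0.121) and an r of 0.35 (adjusted p = 0.0640). Without the males high in muscle markers none passed by rank and 3 did by r.

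**Figure D5:**
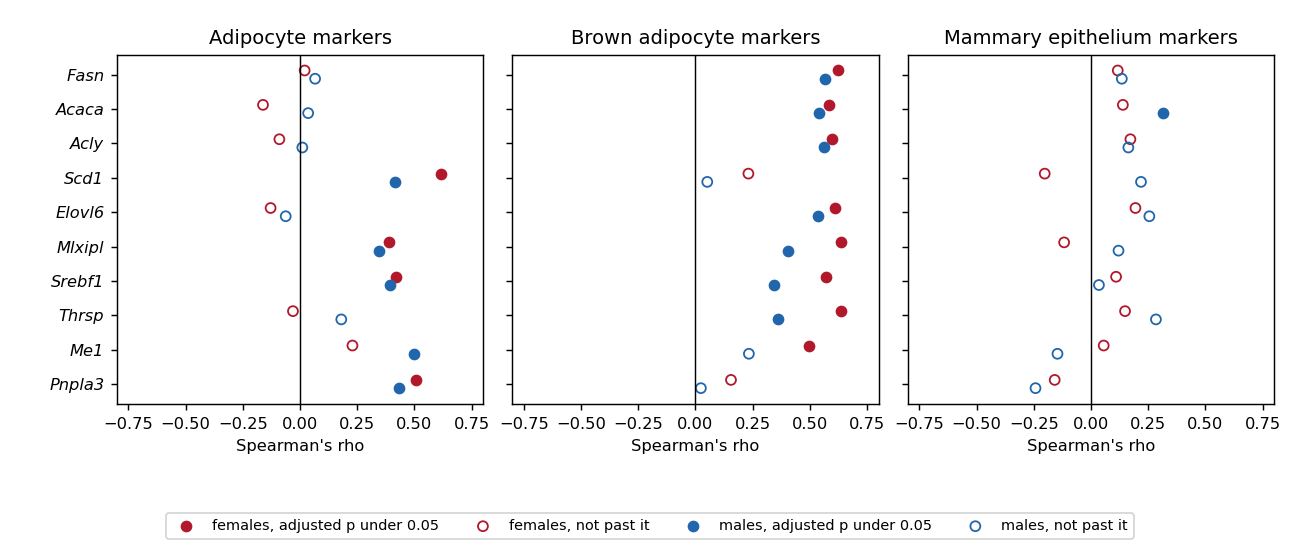
Spearman's rho of each lipogenesis gene with the mean log2 CPM of adipocyte, mammary epithelial and brown adipocyte markers over 67 females and 74 males. Filled points passed the permutation test at an adjusted p under 0.05. Scd1, Pnpla3, Mlxipl and Srebf1 passed with the adipocyte markers in each sex. Fasn, Acaca, Acly, Elovl6, Thrsp, Mlxipl and Srebf1 passed with the brown adipocyte markers in each sex. Me1 passed with the adipocyte markers in males and with the brown adipocyte markers in females. Acaca passed with the mammary epithelial markers in males.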

How the data were processed

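RNA-seq of iWAT was analysed in 67 female and 74 male libraries, grouped by the sex and strain labels. The authors quantified reads with kallisto 0.46.1 (per the labels, with build mm10) against Ensembl release 97 transcripts and summed transcripts to genes. They deposited estimated counts and TPM for 36558 genes per library. Estimated counts, of which 30.2% were not whole, were rounded and tested with edgeR 4.0.16 (R 4.3.3, TMM, filterByExpr, quasi-likelihood), with ~ Strain + Sex over 59 strains and ~ Family within each sex, and Benjamini-Hochberg adjustment over all genes tested. Symbols came from GENCODE M21.

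The strain pairs a female and a male library by its label. Deviations from the sex means correlated with a mean r of 0.41 within strains, against -0.0071 between different strains. With 1 library per strain and sex, p-values of the sex and family tests and of the correlations measure the spread between strains. Those of the strain test set the strains against the spread between the libraries of a strain. Correlations used log2 CPM (prior count 2) and two-sided tests with 100000 permutations, or 10000 for marker scores and alternatives. Adjustment was over all genes. Motif positions count from -1 at the base before the start. limma 3.58.1 (voom and log2 TPM), DESeq2 1.42.0, other scalings and filters, marker covariates and fits without strains were tried as alternatives, and those on brown adipocyte markers, muscle markers, libraries that stood apart and all 5 families were added after the data were seen. The code was checked on simulated counts.

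Named genes were the 10 members and, in each section of the pathway list, at most 2 genes per direction with the lowest adjusted p. The 10 genes most like Fasn by the smaller rho of the sexes were also named. The members, the pathway genes and the marker lists were chosen with earlier results of these data known. At the shallowest library 3 counts equal 0.479 CPM, which all members exceeded, and this limit covers counting error only.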

Additional observations from a re-analysis of the deposited data

Results flagged for a closer look

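In 1 group of 4 to 10 libraries a lone value stood far from the rest. Pnpla3 in the 9 AXB and BXA females was lowest in AXB12/PgnJ, at 19.32 CPM against a median of 148.7 CPM. On the log2 CPM scale the gap to the nearest library was 0.770 of the whole range, above the critical 0.493. In the male library of the same strain Pnpla3 was at 199.9 CPM. Of these 9 females AXB12/PgnJ was also the lowest for Fasn, Acaca, Scd1, Mlxipl, Srebf1, Thrsp and Me1. Its gap was 0.481 for Mlxipl and 0.467 for Scd1, below the critical value. A gap at the critical value is reached by chance in about 1 in 20 groups, and 10 groups were examined. These groups were the same 9 libraries read for each of the 10 members, so they were not independent. The female AXB12/PgnJ was also the lowest of the matched females in adipocyte markers, and the part of this in the Pnpla3 value was not tested.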

How the results depend on the processing

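The sex difference of each member was recomputed under the alternative settings. The count of members higher in females stayed within 4 to 6 and that of members lower at 2, except in these. With mammary markers as covariate, and with mammary and adipocyte markers together, 0 members passed, 0 higher and 0 lower (at an unadjusted p under 0.05, 0 and 1), and over all genes 2 higher and 5 lower, and 11 higher and 17 lower, were called. The log2FC then turned, respectively, to -0.60 and -0.65 for Fasn, -0.78 and -0.80 for Acaca, -0.48 and -0.49 for Acly, -0.40 and -0.42 for Elovl6, -1.18 and -1.22 for Thrsp, -0.64 and -0.68 for Me1, -0.097 and -0.15 for Mlxipl, 0.26 and 0.18 for Scd1 and 0.14 and 0.12 for Pnpla3. With adipocyte markers alone, 0 members were lower, and Pnpla3 (0.076) and Scd1 (0.51) turned. Values near 0 that passed in neither setting turned for Mlxipl with limma-voom (-0.021), without mitochondrial genes (-0.0093) and without a filter (-0.0037), and for Scd1 with library totals (0.070), over all libraries (0.015), on log2(TPM + 1) and log2(TPM + 0.1) (0.016 each) and without the strains high in muscle markers (0.017). Without the replicate block (the strain pairing), with all libraries and no pairing, and on log2(TPM + 1) or log2(TPM + 0.1), 1 member was lower. Over all genes, 5354 were higher and 2878 lower on log2(TPM + 1), against 4759 and 4988. The calls were 5379 and 2855 on log2(TPM + 0.1), 4086 and 4104 without the block, and 4519 and 4220 over all libraries. Leaving out 1 strain at a time with limma-voom kept all calls but that of Fasn. Variation between strains passed for 5 members on log2(TPM + 1) and for 4 with limma-voom, against 8. In the family test 1 member passed in females with adipocyte markers as covariate, against 0. The female to male correlation passed for 6 members after regressing out brown adipocyte markers or without AXB12/PgnJ, NZW/LacJ and PL/J, and for 5 without the label conflict or without the 2 farthest strains, against 3. For the strain and correlation counts the share of all genes in the same setting is not given. Of the values for single genes 555 stayed on their side of the threshold in the same direction, 29 lost a call and 24 gained 1 in the same direction, and 28 turned. Causes were not tested. With 1 library per strain and sex, animals within a strain could not be compared, and the depth limited no member.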
